A study of Mus musculus with 25 samples.

Results

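The machinery that writes, copies and removes methyl groups on DNA was followed through 25 RNA-seq libraries of mouse 2-cell embryos made by somatic cell nuclear transfer (SCNT) or by in vitro fertilization (IVF). It was taken as 10 genes named by symbol, chosen with earlier results of these data known, under a rule that itself used no measured value. Each symbol was matched by its Ensembl identifier to 1 of the 55375 genes counted. The members were the DNA methyltransferases *Dnmt1*, *Dnmt3a* and *Dnmt3b*, the inactive homologue *Dnmt3l*, the dioxygenases *Tet1*, *Tet2* and *Tet3*, the cofactor *Uhrf1*, the glycosylase *Tdg* and the maternal factor *Dppa3*. All 10 were found, and all 10 passed the filter on low counts.

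Every library came from 5 to 10 pooled wild-type embryos collected 28 to 29 h after insemination or activation, so that p values measure the spread between pools. IVF embryos (4 libraries) had C57BL/6N oocytes, from females aged 4 to 20 weeks, and DBA2 sperm. All SCNT embryos had nuclei of wild-type BDF1 (C57BL/6N × DBA2) cumulus cells, the somatic cells around the oocyte, injected into enucleated BDF1 oocytes. IVF pools held male and female embryos, and SCNT embryos were all female. The way the embryo was made, the strain of its oocyte and the mix of sexes changed together and cannot be told apart. Cytochalasin B was used during activation for control SCNT and for the groups named SCNT-*Kdm3a* and SCNT-*Kdm4d* (2 libraries each), which were injected with 10 pL of mRNA of *Kdm3a* or *Kdm4d*, which encode demethylases of lysine 9 of histone H3 (H3K9). All groups whose names start with CC were made with latrunculin A (LatA) instead. CC_cont (2) had no further treatment, CC_T (2) had the histone deacetylase inhibitor trichostatin A (TSA, 25 nM for 8 h), and CC_G had an inhibitor of the H3K9 methyltransferase G9a at 1 µM for 24 h, either RK-701 (3, given as R701 in the labels) or A366 (2). CC_TG embryos had TSA together with RK-701, A366 or UNC0638 (2 each) at those doses and times. In pools of whole embryos, fewer cells that hold a transcript and less of it per cell cannot be told apart.

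Between 6662727 and 21188688 reads fell on genes in a library (median 13994840). *Kdm3a* was at 3116 to 3465 CPM in SCNT-*Kdm3a* libraries and at 109 to 266 elsewhere, and *Kdm4d* was at 12539.8 to 18542 CPM in SCNT-*Kdm4d* libraries and at 0.718 to 5.08 elsewhere, as their labels say. All 9 transcripts listed for the 2-cell embryo were detected in each group, with a summed level of 254 to 1415 CPM. The 12 listed for cumulus and granulosa cells summed to 6.29 to 21.4 CPM, with 1 to 5 of them at 0 in each group. The 12 transcripts listed as stored by the oocyte summed to 3567 to 4301 CPM in IVF, 1463 to 1507 in control SCNT, 1353 to 1714 in CC_cont, 2672 to 3872 in CC_G (RK-701) and 1273 to 2219 in the other groups. The part of these differences in the results on the members was not tested.

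DNA methylation in mammals sits mainly on the cytosine of CG dinucleotides. DNMT3A and DNMT3B set it on unmethylated DNA, with DNMT3L as a partner without catalytic activity, and DNMT1 copies it to the new strand after replication, guided by UHRF1, which binds hemimethylated DNA. TET enzymes oxidise 5-methylcytosine, TDG can cut out the most oxidised forms, and base excision repair refills the gap. In the fertilised egg, DPPA3 (also called STELLA or PGC7) protects the maternal genome from TET3-dependent oxidation and restrains UHRF1, and most of these proteins or their transcripts are inherited from the oocyte. Oocytes use their own first exon of *Dnmt1*, upstream of the somatic start.

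The counts sum over all starts of a gene, so windows around starts of *Dnmt1*, *Dnmt3b*, *Tet3* and *Uhrf1*, on which the comparisons with IVF and between SCNT groups turn, are shown with their CG dinucleotides, the substrate of these enzymes, in capitals. They run from 250 bases before to 50 bases after the start in RefSeq (GRCm38.p6). Such windows matched 9 of the 10 members, *Dppa3* being the exception. *Dnmt1* has 3 starts on the minus strand, with 2 CG at the most upstream (chr9:20959839-20960138), 12 at chr9:20952930-20953229 and 33 at the most downstream (chr9:20952574-20952873), and the outer ones are printed. The windows of *Dnmt3b* (chr2:153649199-153649498, plus strand) and *Tet3* (chr6:83441629-83441928, minus strand) hold 30 and 22. *Uhrf1* has 2 starts on the plus strand, both printed, with 12 CG at chr17:56303087-56303386 and 33 at chr17:56304063-56304362.
Dnmt1 upstream start: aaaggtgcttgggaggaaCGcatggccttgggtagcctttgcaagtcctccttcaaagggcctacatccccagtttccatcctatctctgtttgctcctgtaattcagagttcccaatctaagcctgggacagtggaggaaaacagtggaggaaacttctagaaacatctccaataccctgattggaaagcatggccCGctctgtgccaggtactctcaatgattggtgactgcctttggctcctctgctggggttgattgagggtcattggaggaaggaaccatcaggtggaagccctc
Dnmt1 downstream start: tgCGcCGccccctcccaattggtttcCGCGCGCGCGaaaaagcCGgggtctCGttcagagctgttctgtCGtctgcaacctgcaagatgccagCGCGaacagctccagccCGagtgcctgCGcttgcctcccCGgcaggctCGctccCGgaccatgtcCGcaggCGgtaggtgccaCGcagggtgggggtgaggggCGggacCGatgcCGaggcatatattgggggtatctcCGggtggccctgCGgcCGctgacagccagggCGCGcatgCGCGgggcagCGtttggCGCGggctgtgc
Dnmt3b: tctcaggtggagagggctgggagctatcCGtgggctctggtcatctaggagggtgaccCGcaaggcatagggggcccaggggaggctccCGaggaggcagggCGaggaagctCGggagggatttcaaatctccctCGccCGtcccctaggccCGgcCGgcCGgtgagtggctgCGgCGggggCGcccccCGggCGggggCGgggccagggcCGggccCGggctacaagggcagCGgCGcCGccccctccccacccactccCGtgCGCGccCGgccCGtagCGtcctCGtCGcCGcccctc
Tet3: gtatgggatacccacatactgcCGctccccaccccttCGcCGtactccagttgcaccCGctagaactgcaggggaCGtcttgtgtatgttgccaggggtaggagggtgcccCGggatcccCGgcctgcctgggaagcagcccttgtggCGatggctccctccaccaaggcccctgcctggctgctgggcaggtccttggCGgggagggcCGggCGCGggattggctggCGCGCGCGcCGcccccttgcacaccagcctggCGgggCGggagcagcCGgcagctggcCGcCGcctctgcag
Uhrf1 upstream start: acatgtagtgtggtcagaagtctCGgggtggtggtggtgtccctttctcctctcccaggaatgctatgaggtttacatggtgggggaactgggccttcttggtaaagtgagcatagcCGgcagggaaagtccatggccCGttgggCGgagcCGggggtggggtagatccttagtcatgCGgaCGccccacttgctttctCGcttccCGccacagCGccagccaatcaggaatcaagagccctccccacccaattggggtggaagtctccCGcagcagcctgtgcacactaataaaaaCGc
Uhrf1 downstream start: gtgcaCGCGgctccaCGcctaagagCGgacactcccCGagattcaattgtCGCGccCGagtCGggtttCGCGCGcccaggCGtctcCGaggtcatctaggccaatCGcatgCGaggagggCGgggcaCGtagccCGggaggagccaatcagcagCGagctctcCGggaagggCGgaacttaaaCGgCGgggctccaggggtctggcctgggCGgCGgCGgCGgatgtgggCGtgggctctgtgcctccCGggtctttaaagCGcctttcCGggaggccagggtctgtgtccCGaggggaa
Over all 32817 windows of this length the median was 7 CG. As many CG or more were found in 85.9% of windows for the upstream start of *Dnmt1*, in 8.57% for its downstream start and that of *Uhrf1*, in 39.6% for the upstream start of *Uhrf1* and the unprinted one of *Dnmt1*, in 11.7% for *Dnmt3b* and in 23.1% for *Tet3*.

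In the annotation of mm10 (GENCODE M21) the genes lie on chromosomes 2 (*Dnmt3b*, 153649450 to 153687730), 3 (*Tet2*, 133463679 to 133545139), 6 (*Tet3*, 83362373 to 83459084; *Dppa3*, 122626410 to 122630272), 9 (*Dnmt1*, 20907209 to 20959888), 10 (*Tet1*, 62804570 to 62908996; *Dnmt3l*, 78041947 to 78063622; *Tdg*, 82629828 to 82650799), 12 (*Dnmt3a*, 3806527 to 3914443) and 17 (*Uhrf1*, 56303321 to 56323486). Only uniquely aligned pairs were counted, so near-identical copies can take or hide reads. The transcript of *Dnmt3b* aligned over 1434 bases to *Dnmt3c* at 93.9% identity, that of *Uhrf1* over 1590 bases to Gm5648 at 98.3%, that of *Tdg* over 2968 bases to *Tdg-ps* at 98.7%, and that of *Dppa3* over 451 bases to *Dppa3-ps* at 98.2%. *Dppa3-ps* held 822 reads in all libraries against 1925576 on *Dppa3*. Pairs over exons of 2 genes were not counted, which touches 367 exon bases that *Tdg* shares with *Glt8d2* and 43 to 133 bases in *Dnmt3a*, *Dnmt3l* and *Tet2*. No exon of a member overlapped a counted copy of a transposable element.

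Between genes, levels were compared per length as TPM. *Dppa3* stood far above the others, with a mean of 17314 TPM over the 25 libraries, the highest of 51146 autosomal genes. *Dnmt3l* followed at 68.2 TPM, *Uhrf1* at 38.4, *Dnmt1* at 31.4, *Dnmt3a* at 28.5, *Tet3* at 23.4 and *Tet1* at 22.1. *Dnmt3b* (ranked 9866th, 6.87 TPM) and *Tet2* (11365th, 4.63 TPM) were low, and *Tdg* was near the limit of detection at 0.321 TPM, with 158 reads in all libraries. In IVF embryos, *Dnmt3l* was at 57.5 ± 3.00 TPM (SD, n = 4), *Uhrf1* at 53.8 ± 10.8, *Tet3* at 28.2 ± 4.29, *Tet1* at 25.4 ± 2.93, *Dnmt3a* at 22.4 ± 1.79 and *Dnmt1* at 21.8 ± 2.02, in this order. The spread (mean ± SD) of *Dnmt3l* overlapped with that of *Uhrf1*, and from *Tet3* to *Dnmt1* each overlapped with the next. Within a gene, normalised counts (CPM after TMM scaling) varied most, *Tdg* with its few reads left aside, for *Dnmt3b*, with a ratio of 3.47 between its highest (CC_cont) and lowest (SCNT-*Kdm3a*) group means, and *Dppa3* followed with 3.33 (SCNT-*Kdm3a* over CC_G (RK-701)). The ratio was 2.47 for *Tet3* (CC_G (A366) over SCNT-*Kdm3a*), 2.27 for *Uhrf1* (IVF over SCNT-*Kdm3a*), and 1.53 to 1.85 for *Tet1*, *Tet2*, *Dnmt3a*, *Dnmt1* and *Dnmt3l*.

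**Figure D1:**
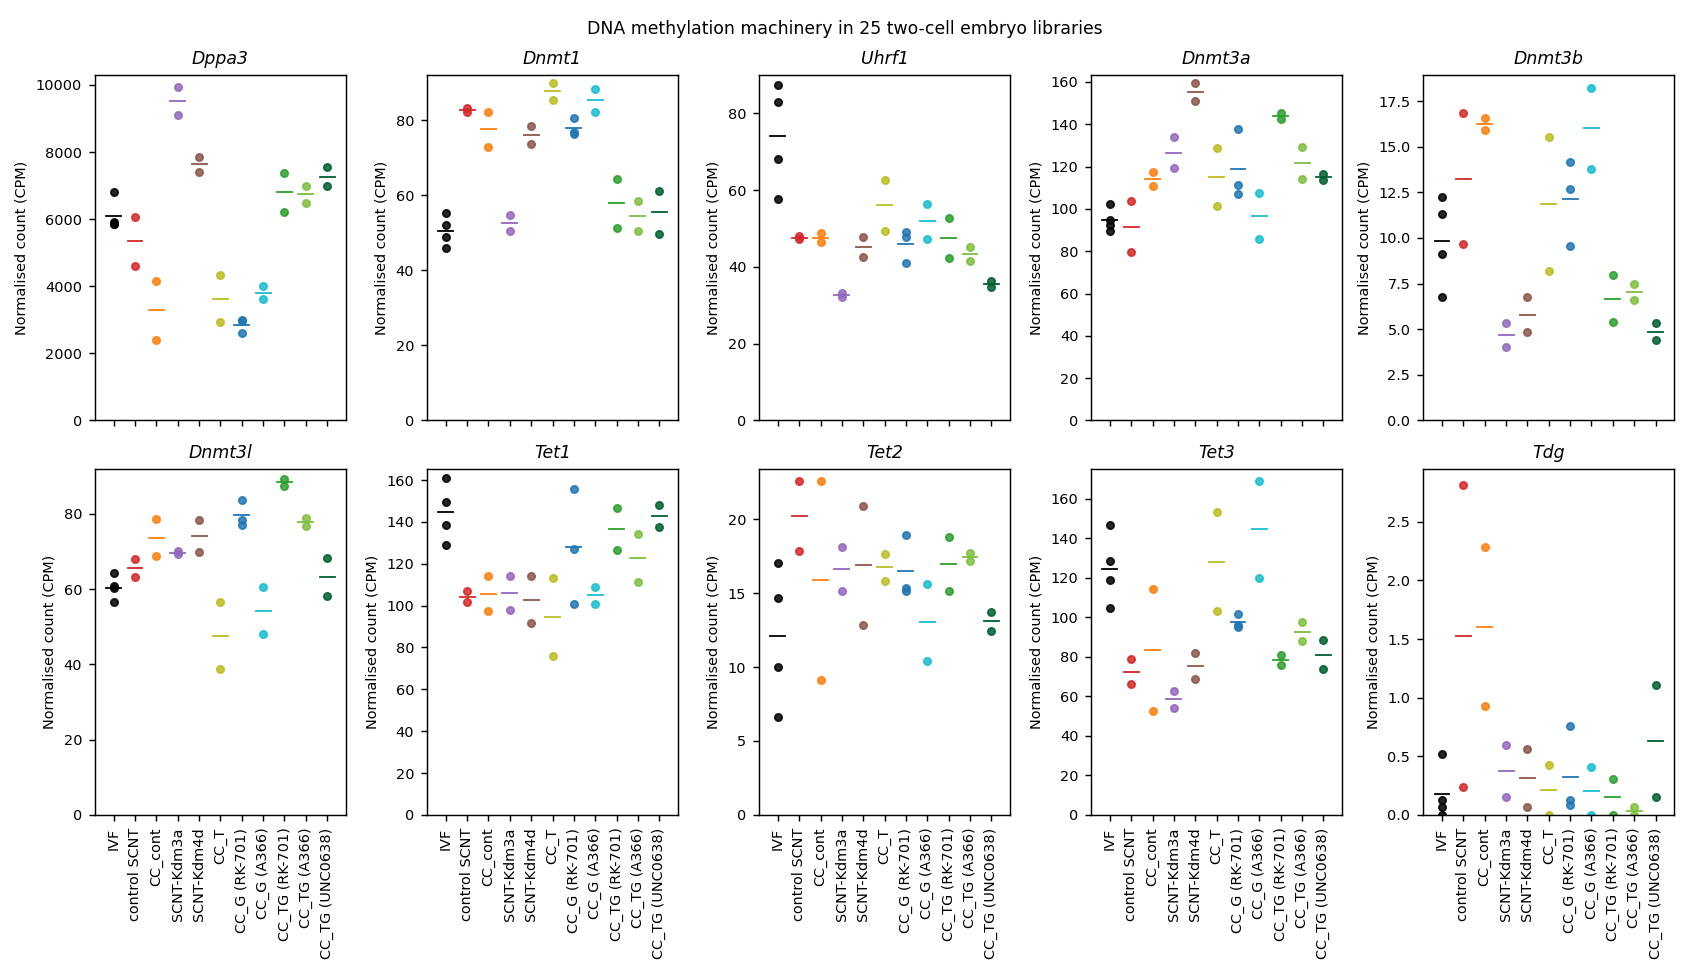
Normalised counts (CPM after TMM scaling) of the 10 genes in each of the 25 libraries, by group, with 1 point per library and a bar at the group mean. *Dnmt1* in IVF (45.9, 55.2, 48.9 and 52.1 CPM) lay below both untreated SCNT groups, and *Uhrf1* in IVF (68.1, 87.4, 57.6 and 83.03) lay above them.

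The first comparison asked how untreated SCNT embryos, the mean of control SCNT and CC_cont, differed from IVF embryos. *Dnmt1* rose 1.58-fold, while *Uhrf1*, *Tet3*, *Tet1* and *Dppa3* fell. Counts were fitted with edgeR's quasi-likelihood test, p values were adjusted over all 25794 genes tested, and a gene passed the test at an adjusted p under 0.05. By this rule 5 of 10 members passed, 1 up and 4 down, against a background of 29.2% of all genes. None of the members was also past 2-fold, where the background was 18.8%. DESeq2 gave 5 and 0 members, and 8 had an unadjusted p under 0.05. The median log2 fold change over the 10 members was 0.16, against 0 over all genes. The plot of fold changes with their intervals shows 9 members, leaving out *Tdg*.

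**Figure D2:**
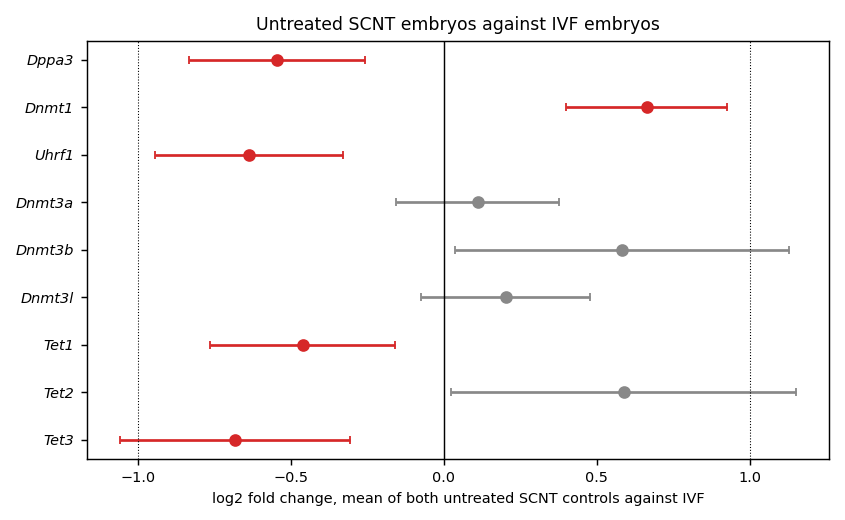
Log2 fold change of 9 genes in the mean of both untreated SCNT controls against IVF (point) with its 95% interval (bar), red where the adjusted p was under 0.05 and dotted at 2-fold. *Dnmt1* lay at 0.66 and *Tet3* at -0.68, and no point reached the dotted lines.

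The maintenance pair moved apart. *Dnmt1*, which copies methylation at replication, was at 45.9, 55.2, 48.9 and 52.1 CPM in the IVF libraries, at 83.2 and 82.3 in control SCNT and at 72.96 and 82.2 in CC_cont. All 4 untreated SCNT libraries lay above all IVF libraries, with means of 80.2 ± 4.82 (SD, n = 4) and 50.5 ± 4.02 (SD, n = 4) (log2 fold change 0.66, SE 0.13, adjusted p = 0.000240). *Uhrf1*, which brings DNMT1 to hemimethylated sites, was at 68.1, 87.4, 57.6 and 83.03 CPM in IVF, 47.3 and 48.1 in control SCNT and 48.8 and 46.5 in CC_cont, without overlap and in the opposite direction (log2 fold change -0.64, SE 0.15, adjusted p = 0.00188). Its IVF libraries spread widely, with an SD of 13.7 CPM, larger than that over the untreated SCNT libraries. On the TPM scale *Uhrf1* did overlap (40.7 to 65.1 in IVF, 38.5 to 43.9 in control SCNT and 41.3 to 44.7 in CC_cont). The log2 ratios of the mean TPM were 0.95 for *Dnmt1* and -0.36 for *Uhrf1*. Both kept an adjusted p under 0.05 without any single library and in all other settings tried.

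The transcripts for de novo methylation did not pass the test. *Dnmt3a* was at 94.7, 102, 89.4 and 92.6 CPM in IVF, 79.7 and 104 in control SCNT and 111 and 117 in CC_cont, with a log2 fold change of 0.11, adjusted p = 0.563. For *Dnmt3b* the values were 12.2, 11.3, 6.74 and 9.13, 9.68 and 16.8, and 15.9 and 16.6 CPM, where control SCNT overlapped with IVF and CC_cont lay above it (0.58, adjusted p = 0.101, 95% interval 0.04 to 1.13). *Dnmt3l*, needed for methylation in growing oocytes, was at 56.4, 60.8, 60.2 and 64.1, 67.9 and 63.2, and 78.6 and 68.8 CPM (0.20, adjusted p = 0.277).

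*Tet3*, the oxidase of the zygote, and *Tet1* were lower in untreated SCNT embryos. *Tet3* was at 105, 146, 128 and 119 CPM in IVF, 78.6 and 66.3 in control SCNT and 52.4 and 114 in CC_cont, where the second CC_cont library reached into the IVF range (log2 fold change -0.68, SE 0.18, adjusted p = 0.00540). The log2 fold change was -1.02 without that library (adjusted p = 3.56e-05) and -0.45 without CC_cont library 1 (adjusted p = 0.0354), and with CC_cont as the only control the test was missed at an adjusted p of 0.0676. *Tet1* was at 149, 161, 139 and 129 CPM in IVF, 107 and 102 in control SCNT and 97.3 and 114 in CC_cont, and the groups did not overlap in CPM (log2 fold change -0.46, SE 0.15, adjusted p = 0.0186). In TPM they overlapped (22.5 to 29.1 in IVF, 19.7 to 24.1 in control SCNT and 19.9 to 26.6 in CC_cont). There the log2 ratio of the means was -0.17. The test for *Tet1* was missed without IVF library 2, or control SCNT library 2, or CC_cont library 1 (adjusted p 0.0512 to 0.0618), and with control SCNT or CC_cont alone (adjusted p = 0.0675 and 0.0788). *Tet2*, at 17.1, 14.7, 6.61 and 9.97 CPM in IVF, 22.6 and 17.9 in control SCNT and 22.6 and 9.12 in CC_cont, went the other way without passing (0.59, adjusted p = 0.110).

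*Dppa3* depended on which control was used. It was at 5859.8, 5842, 6806 and 5909 CPM in IVF, 4597 and 6078 in control SCNT and 4170.4 and 2394 in CC_cont, so that 1 control SCNT library lay within the IVF range and both CC_cont libraries lay below it. The mean of both controls fell by 0.54 on the log2 scale (SE 0.14, adjusted p = 0.00405). With control SCNT alone the log2 fold change was -0.19 (adjusted p = 0.464) and with CC_cont alone -0.90 (adjusted p = 0.000529). In TPM, *Dppa3* was at 18571 ± 1090.2 in IVF (SD, n = 4), 19168 ± 1743 in control SCNT and 12235 ± 3634 in CC_cont (SD, n = 2), where control SCNT was above IVF by less than 1 SD. *Tdg*, the glycosylase, had 0, 2, 8 and 1 reads in IVF, 29 and 3 in control SCNT and 42 and 10 in CC_cont, and 0 to 15 reads in each other library. Its log2 fold change of 2.96 (SE 1.23, adjusted p = 0.0711) did not pass, and IVF was at 0 in 1 library, so a difference was not resolved at this depth.

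The 8 treated SCNT groups were each compared with the same IVF libraries, and these comparisons therefore share their reference. Among results that passed by adjusted p, *Uhrf1* was below IVF in 7 of the 8 and *Dnmt1* above it in 4. Among these results, *Dppa3* lay above IVF in SCNT-*Kdm3a* and below it in 3 groups. By adjusted p alone, 4 members passed in SCNT-*Kdm3a* (background 19.2% of all genes), 4 in SCNT-*Kdm4d* (14.5%), 3 in CC_T (21.8%), 3 in CC_G (RK-701) (19.4%), 3 in CC_G (A366) (22.1%), 4 in CC_TG (RK-701) (18.6%), 1 in CC_TG (A366) (16.4%) and 2 in CC_TG (UNC0638) (15%). Past 2-fold as well were 3 in SCNT-*Kdm3a* (12.7%), 1 in CC_G (RK-701) (11.8%), 2 in CC_TG (UNC0638) (9.82%), and 0 in SCNT-*Kdm4d* (9.24%), CC_T (14.9%), CC_G (A366) (15.1%), CC_TG (RK-701) (12.2%) and CC_TG (A366) (10.8%). In these 5 groups without a member past 2-fold, DESeq2 also gave 0, and 6, 4, 5, 4 and 3 members had an unadjusted p under 0.05. The matrix of fold changes gives all 9 comparisons side by side for the members other than *Tdg*.

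**Figure D3:**
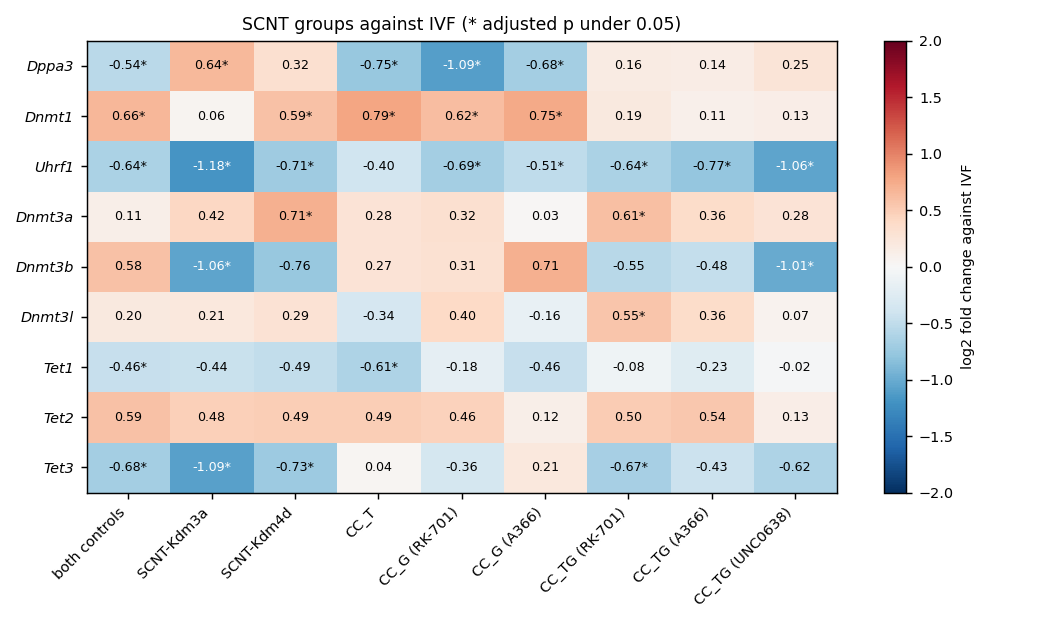
Log2 fold change of 9 genes (rows) against IVF in the mean of both untreated controls and in the 8 treated SCNT groups (columns), red above and blue below IVF, with an asterisk where the adjusted p was under 0.05. The *Uhrf1* row ran from -1.18 in SCNT-*Kdm3a* to -0.40 in CC_T, and the *Dppa3* row from -1.09 in CC_G (RK-701) to 0.64 in SCNT-*Kdm3a*.

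*Uhrf1* was at 32.3 and 33.1 CPM in SCNT-*Kdm3a* and 36.2 and 34.9 in CC_TG (UNC0638), the groups with its lowest means, and at 42.5 and 47.8 in SCNT-*Kdm4d*. It was at 49.1, 41.1 and 47.9 in CC_G (RK-701), 56.5 and 47.4 in CC_G (A366), 42.3 and 52.9 in CC_TG (RK-701) and 41.6 and 45.1 in CC_TG (A366). All of these lay below the lowest IVF library, at 57.6 CPM. In CPM, only CC_T, at 62.7 and 49.5, reached into the IVF range, and there the test was missed (-0.40, adjusted p = 0.126). In TPM, CC_G with RK-701 (34.8 to 42.9) and A366 (40.66 to 47.4) also reached into the IVF range (40.72 to 65.1). The difference was past 2-fold in SCNT-*Kdm3a* (log2 fold change -1.18, SE 0.19, adjusted p = 6.28e-05) and CC_TG (UNC0638) (-1.06, SE 0.19, adjusted p = 0.000278), and was -0.77 to -0.51 in the other 5 (adjusted p 0.00312 to 0.0485). It came to -0.97 in CC_TG (UNC0638) without IVF library 2. The call was lost in SCNT-*Kdm4d* without SCNT-*Kdm4d* library 1 or 2 (adjusted p 0.0607 to 0.138), in CC_TG (A366) without CC_TG (A366) library 1 (adjusted p 0.0844), in CC_TG (RK-701) without IVF library 2, or CC_TG (RK-701) library 1 (adjusted p 0.0553 to 0.232), and in CC_G (A366) without IVF library 1, 2 or 4, or CC_G (A366) library 1 or 2 (adjusted p 0.0525 to 0.335). Without the filter on low counts it was lost in CC_TG (RK-701) and CC_G (A366) (adjusted p = 0.0540 and 0.146).

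*Dnmt1* split the groups into 2 sets. It was at 73.6 and 78.4 CPM in SCNT-*Kdm4d*, 89.999 and 85.5 in CC_T, 76.5, 76.95 and 80.6 in CC_G (RK-701) and 82.3 and 88.3 in CC_G (A366), all above the highest IVF library at 55.2 CPM. In those groups it rose by 0.59, 0.79, 0.62 and 0.75 on the log2 scale (adjusted p = 0.00925, 0.000348, 0.00140 and 0.000606). SCNT-*Kdm3a* (54.8 and 50.4 CPM) and CC_TG with RK-701 (64.5 and 51.3), A366 (50.4 and 58.4) or UNC0638 (49.8 and 61.2) overlapped with IVF, with log2 fold changes of 0.06 to 0.19 and intervals reaching no higher than 0.51. In SCNT-*Kdm4d* the call was lost without SCNT-*Kdm4d* library 1 or 2 (adjusted p 0.0508 to 0.119) and, at an adjusted p of 0.0571, without the filter on low counts.

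Of the de novo enzymes, *Dnmt3b* fell in SCNT-*Kdm3a* (5.34 and 4.02 CPM, log2 fold change -1.06, SE 0.35, adjusted p = 0.0304) and in CC_TG (UNC0638) (5.33 and 4.42 CPM, -1.01, SE 0.35, adjusted p = 0.0485), both below the lowest IVF library at 6.74 CPM. These calls were weak. The first was lost without IVF library 1 or 2, or SCNT-*Kdm3a* library 1 or 2 (adjusted p 0.0681 to 0.230), and the second without IVF library 1, 2 or 4, or CC_TG (UNC0638) library 1 or 2 (adjusted p 0.0666 to 0.279) and without the filter on low counts (adjusted p = 0.0759). In CC_G (A366), at 13.8 and 18.2 CPM, *Dnmt3b* lay above all IVF libraries without passing (0.71, adjusted p = 0.111). *Dnmt3a* rose in SCNT-*Kdm4d*, to 151 and 159.5 CPM (0.71, SE 0.15, adjusted p = 0.00191), and in CC_TG (RK-701), to 145 and 143 CPM (0.61, adjusted p = 0.00595), each above all IVF libraries. Without passing, it also lay above them in SCNT-*Kdm3a* (134 and 119), CC_G (RK-701) (107 to 138) and CC_TG with A366 (114 and 129) or UNC0638 (113.5 and 116.5). In TPM, *Dnmt3a* in SCNT-*Kdm3a* (24.7 to 29.1) and CC_TG (UNC0638) (23.8 to 26.1) overlapped with IVF (20.6 to 24.8). *Dnmt3l* rose in CC_TG (RK-701), to 87.4 and 89.4 CPM (0.55, adjusted p = 0.0163), also above all IVF libraries. Without passing, it lay above them as well in SCNT-*Kdm3a* (69.2 and 70.1), SCNT-*Kdm4d* (69.9 and 78.4), CC_G (RK-701) (77.04 to 83.8) and CC_TG (A366) (76.8 and 78.8). In TPM, *Dnmt3l* in SCNT-*Kdm3a* (58.5 to 60.55) and SCNT-*Kdm4d* (60.49 to 66.8) overlapped with IVF (54.2 to 60.59). In CC_TG (RK-701) the calls were lost for *Dnmt3a* without CC_TG (RK-701) library 1 or 2 (adjusted p 0.0515 to 0.0586) and for *Dnmt3l* without CC_TG (RK-701) library 1 or 2 (adjusted p 0.0873 to 0.124) or without the filter on low counts (adjusted p = 0.0724).

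Among the oxidases, *Tet3* fell in SCNT-*Kdm3a* to 62.5 and 54.2 CPM (log2 fold change -1.09, SE 0.23, adjusted p = 0.00127), in SCNT-*Kdm4d* to 81.9 and 68.8 (-0.73, adjusted p = 0.0315) and in CC_TG (RK-701) to 81.1 and 75.9 (-0.67, adjusted p = 0.0406). All 6 libraries lay below the lowest IVF library, at 105 CPM. In CC_TG with A366 it was at 97.5 and 87.97 and with UNC0638 at 73.8 and 88.3 CPM, also below IVF but without passing (-0.43, adjusted p = 0.214 and -0.62, adjusted p = 0.0671). In CC_G (RK-701) it was at 95.9, 94.9 and 101.5 CPM, again below IVF without passing (-0.36, adjusted p = 0.231). In TPM this group (25.0 to 27.5) lay within the IVF range (23.9 to 34.0). CC_T (153 and 103 CPM) and CC_G (A366) (119.9 and 169) were not on 1 side of the IVF range, since CC_T had 1 library above and 1 below it and CC_G (A366) 1 within and 1 above, with log2 fold changes of 0.04 and 0.21 (adjusted p = 0.935 and 0.529). The *Tet3* difference came to -0.99 in SCNT-*Kdm3a* without its library 2, and the calls were lost in SCNT-*Kdm4d* without IVF library 2 or 3, or SCNT-*Kdm4d* library 1 or 2 (adjusted p 0.0581 to 0.284) and in CC_TG (RK-701) without IVF library 2, 3 or 4, or CC_TG (RK-701) library 1 or 2 (adjusted p 0.0554 to 0.244). *Tet1* fell in CC_T (113 and 75.96 CPM, -0.61, adjusted p = 0.0173), where the value was -0.93 without CC_T library 1 and -0.35 (adjusted p = 0.311) without library 2. *Tet1* also lay below all IVF libraries, without passing, in SCNT-*Kdm3a* (-0.44), SCNT-*Kdm4d* (-0.49) and CC_G (A366) (-0.46, adjusted p 0.0718 to 0.0912 in these groups). In TPM, *Tet1* in CC_G (A366) (20.5 to 22.7) overlapped with IVF (22.5 to 29.1). *Tet2* passed in none of the 8 comparisons, with log2 fold changes of 0.12 to 0.54 and an unadjusted p under 0.05 in none of them.

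*Dppa3* was at 9106 and 9935 CPM in SCNT-*Kdm3a*, above all IVF libraries, and rose by 0.64 on the log2 scale (SE 0.17, adjusted p = 0.00711). In SCNT-*Kdm4d* it was at 7416 and 7858 CPM, also above all IVF libraries, without passing (0.32, adjusted p = 0.222). It was at 2608, 3004 and 2968 in CC_G (RK-701), 3996 and 3613 in CC_G (A366) and 2935 and 4323 in CC_T, all below the lowest IVF library at 5842 CPM. The log2 fold changes were -1.09 (SE 0.16, adjusted p = 7.97e-06), -0.68 (adjusted p = 0.00566) and -0.75 (adjusted p = 0.00259). With TSA and a G9a inhibitor together it was at 6219.8 and 7390.4 (RK-701), 6984 and 6490.3 (A366) and 7556 and 6980.4 (UNC0638), in or above the IVF range, with log2 fold changes of 0.14 to 0.25 and adjusted p of 0.356 to 0.634. The call in CC_G (RK-701) stood without any single library. In SCNT-*Kdm3a* it was lost without SCNT-*Kdm3a* library 2 (adjusted p 0.0867), in CC_G (A366) without CC_G (A366) library 2 (adjusted p 0.0936), and in CC_T without CC_T library 1 (adjusted p 0.150), where the log2 fold change was -0.50.

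Compared with control SCNT, embryos injected with *Kdm3a* mRNA had less *Dnmt3b* and *Dnmt1* and more *Dppa3*. By adjusted p alone 3 of 10 members passed (background 6.21%), and *Dnmt3b* alone was past 2-fold (4.14%). *Dnmt3b* went from 9.68 and 16.8 CPM in control SCNT to 5.34 and 4.02 (log2 fold change -1.50, SE 0.39, adjusted p = 0.0188), and both injected libraries lay below both controls. *Dnmt1* went from 83.2 and 82.3 to 54.8 and 50.4 CPM (log2 fold change -0.65, SE 0.18, adjusted p = 0.0290), also without overlap. *Dppa3* went from 4597 and 6078 to 9106 and 9935 CPM (log2 fold change 0.83, SE 0.20, adjusted p = 0.0109), again without overlap. The call for *Dnmt3b* was lost without control SCNT library 2, or SCNT-*Kdm3a* library 1 or 2 (adjusted p 0.0558 to 0.188), and its log2 fold change was -1.04 without control SCNT library 2. That for *Dppa3* was lost without control SCNT library 1, or SCNT-*Kdm3a* library 2 (adjusted p 0.0885 to 0.193), and its log2 fold change was 1.05 without control SCNT library 2 and 1.54 with CC_cont as the reference. For *Dnmt1* the call was lost without any 1 of the 4 libraries (adjusted p 0.0714 to 0.189), without the filter on low counts (0.123) and in a fit of the compared libraries alone (0.193). The summed 2-cell transcripts were at 671 to 752 CPM in control SCNT and 1145 to 1415 in SCNT-*Kdm3a*, and the part of this shift in the results was not tested.

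Embryos injected with *Kdm4d* mRNA had more *Dnmt3a* than control SCNT, from 79.7 and 104 CPM in control SCNT to 151 and 159.5 (log2 fold change 0.76, SE 0.18, adjusted p = 0.0146), and the groups did not overlap. This was the 1 member that passed by adjusted p (background 5.26%). None was past 2-fold (3.13%), where DESeq2 gave 1 and 3 members had an unadjusted p under 0.05. *Dnmt3b* went to 6.78 and 4.84 CPM, below both controls, without passing (-1.19, adjusted p = 0.0666). *Dppa3* went to 7416 and 7858 CPM, above both controls, also without passing (0.52, adjusted p = 0.138). The call for *Dnmt3a* was lost without control SCNT library 1, or SCNT-*Kdm4d* library 1 or 2 (adjusted p 0.0593 to 0.247) and with CC_cont as the reference (0.44, adjusted p = 0.160). Between SCNT-*Kdm4d* and SCNT-*Kdm3a* no member passed by either rule in edgeR (backgrounds 0.376% and 0.349%). Unadjusted p was under 0.05 for 2 members, and DESeq2 gave 1 by adjusted p and 0 past 2-fold. Those 2 were *Dnmt1* and *Uhrf1*, with log2 differences of 0.53 (95% interval 0.16 to 0.90) and 0.47 (0.03 to 0.90).

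The 6 inhibitor groups were each compared with the same 2 CC_cont libraries. Embryos given TSA and a G9a inhibitor together had more *Dppa3* and less *Dnmt3b* than CC_cont, with all 3 inhibitors, and no member passed with TSA or a G9a inhibitor alone. *Dppa3* was at 4170.4 and 2394 CPM in CC_cont and at 6220 to 7556 in the 6 CC_TG libraries, without overlap. It rose by 1.05 on the log2 scale for RK-701, 1.04 for A366 and 1.15 for UNC0638 (SE 0.20 each, adjusted p = 0.00110, 0.00139 and 0.000483). *Dnmt3b* was at 15.9 and 16.6 CPM in CC_cont and at 5.41 and 7.95, 6.58 and 7.51, and 5.33 and 4.42 with RK-701, A366 and UNC0638, again without overlap. It fell by 1.28, 1.20 and 1.73 on the log2 scale (SE 0.38, 0.38 and 0.39, adjusted p = 0.0301, 0.0429 and 0.00461). The summed 2-cell transcripts were at 396 to 520 CPM in CC_cont, 380 to 416 in CC_TG (RK-701), 342 to 395 in CC_TG (A366) and 1380 to 1394 in CC_TG (UNC0638), and the part of the shift with UNC0638 in the results was not tested. *Dnmt1*, at 72.96 and 82.2 CPM in CC_cont, lay between 49.8 and 64.5 in the 6 CC_TG libraries, below both controls but without passing (log2 fold changes -0.51 to -0.42, adjusted p 0.0759 to 0.146).

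By adjusted p and past 2-fold alike, the 2 members that passed were *Dppa3* and *Dnmt3b* with RK-701 (backgrounds 9.73% and 6.18% of all genes), A366 (9.26% and 5.93%) and UNC0638 (9.06% and 6.16%). DESeq2 gave 3 members by adjusted p in each, and 1, 1 and 2 past 2-fold. The median log2 fold change over all genes was -0.11, -0.12 and -0.08. With TSA alone (0.407% and 0.341%), RK-701 alone (5.55% and 3.34%) or A366 alone (0.132% and 0.12%), 0 members passed in edgeR. There 2, 0 and 2 members had an unadjusted p under 0.05, and DESeq2 gave 1, 0 and 0 by adjusted p and 0 past 2-fold. *Dnmt3b* was at 15.5 and 8.20 CPM with TSA alone, 14.2, 9.57 and 12.7 with RK-701 alone and 13.8 and 18.2 with A366 alone, where the log2 fold changes were -0.46 (95% interval -1.22 to 0.30), -0.42 (-1.11 to 0.27) and -0.02 (-0.78 to 0.74). For *Dppa3*, at the CPM given above, they were 0.14 (-0.26 to 0.55), -0.20 (-0.57 to 0.17) and 0.21 (-0.19 to 0.62). With TSA alone, *Dnmt3l* had the largest difference of the members other than *Tdg*, -0.63 (95% interval -1.02 to -0.24, adjusted p = 0.139), and with A366 alone *Tet3* had it, 0.80 (0.27 to 1.33, adjusted p = 0.193).

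The size of the *Dppa3* difference rested on CC_cont. With control SCNT as the reference the log2 fold changes were 0.35, 0.34 and 0.45 for RK-701, A366 and UNC0638 (adjusted p = 0.286, 0.318 and 0.187). Without CC_cont library 2, which had the lowest *Dppa3* of all 25, they were 0.71, 0.69 and 0.80 (adjusted p = 0.0367, 0.0391 and 0.0213). In a fit of the compared libraries alone, adjusted p was 0.0617 with RK-701 and 0.0743 with A366. The log2 fold changes were 0.92 with RK-701 without its library 2 and 0.98 with A366 without its library 1. For *Dnmt3b*, the call with UNC0638 was lost only without CC_TG (UNC0638) library 2 (adjusted p 0.0586) among single libraries, whereas those with RK-701 and A366 were lost without any 1 of their 4 libraries (adjusted p 0.0528 to 0.241 and 0.0737 to 0.238). These 2 were also lost with control SCNT as the reference (adjusted p = 0.0998 and 0.137) and in a fit of the compared libraries alone (0.136 and 0.148), and that with A366 without the filter on low counts (0.0582).

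The effect of TSA was then averaged over embryos without a G9a inhibitor, with RK-701 and with A366, and that of the G9a inhibitors, RK-701 and A366 together, over embryos without and with TSA. These averages reuse the libraries of the comparisons above. With TSA, *Dppa3* rose (log2 fold change 0.74, SE 0.11, adjusted p = 3.06e-05), *Dnmt3b* fell (log2 fold change -0.83, SE 0.21, adjusted p = 0.00608) and *Dnmt1* fell (log2 fold change -0.30, SE 0.10, adjusted p = 0.0367). These were the 3 members that passed by adjusted p (background 18.8%). None was past 2-fold (5.87%), also by DESeq2, and 3 had an unadjusted p under 0.05. The direction for *Dnmt1* differed by background. Without a G9a inhibitor it was higher with TSA (89.999 and 85.5 CPM in CC_T, 72.96 and 82.2 in CC_cont). With RK-701 it was lower with TSA (64.5 and 51.3 against 76.5, 76.95 and 80.6). The same held with A366 (50.4 and 58.4 against 82.3 and 88.3). For *Dppa3*, CC_T (2935 and 4323) overlapped with CC_cont (4170.4 and 2394), whereas RK-701 and A366 libraries did not overlap with and without TSA. The median over all genes was -0.12, and relative to it *Dppa3* and *Dnmt3b* kept their directions. Without any single library both stayed past the test (log2 fold changes 0.62 to 0.89 and -1.01 to -0.70 over all settings of the fit), while *Dnmt1* lost it without CC_cont library 2, or CC_T library 1 or 2, or CC_G (RK-701) library 3, or CC_G (A366) library 1 or 2, or CC_TG (RK-701) library 2, or CC_TG (A366) library 1 (adjusted p 0.0521 to 0.138) without the filter on low counts (adjusted p = 0.176) and in a fit of the compared libraries alone (0.0813). With the G9a inhibitors, *Dppa3* rose (log2 fold change 0.45, SE 0.12, adjusted p = 0.0276) and was the 1 member that passed by adjusted p (background 5.38%). None was past 2-fold (1.55%), also by DESeq2, and 5 had an unadjusted p under 0.05. Against CC_cont, without TSA, the log2 fold changes were -0.20 with RK-701 and 0.21 with A366, of opposite sign and neither passing. With TSA they were 1.05 and 1.04, also against CC_cont, so that these 2 values hold the effect of TSA as well. This call was lost without CC_cont library 2, or CC_T library 1, or CC_G (A366) library 1, or CC_TG (RK-701) library 2, or CC_TG (A366) library 1 (adjusted p 0.0534 to 0.252), and in a fit of the compared libraries alone (0.0700). The value was 0.68 without CC_cont library 1 and 0.28 without CC_cont library 2.

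Whether a G9a inhibitor changed the effect of TSA was tested as an interaction. For *Dppa3*, the level with TSA and RK-701 was 1.11 higher on the log2 scale than the separate effects added together (SE 0.27, 95% interval 0.56 to 1.65, adjusted p = 0.0244). With A366 the value was 0.68 (0.10 to 1.25, adjusted p = 0.205). For *Dnmt3l* it was 1.15 with A366 (SE 0.27, 0.60 to 1.70, adjusted p = 0.0253) and 0.78 with RK-701 (0.25 to 1.30, adjusted p = 0.114). *Dnmt3l* was at 78.6 and 68.8 CPM in CC_cont, 38.8 and 56.5 in CC_T, 47.99 and 60.5 in CC_G (A366) and 76.8 and 78.8 in CC_TG (A366). Libraries with either inhibitor alone thus lay below both controls, and those with both did not. *Tet3* was at 52.4 and 114 in CC_cont, 153 and 103 in CC_T, 119.9 and 169 in CC_G (A366) and 97.5 and 87.97 in CC_TG (A366), with overlap between CC_cont and CC_T, and its interaction did not pass (-1.26, adjusted p = 0.0653). In each interaction 1 of 10 members passed, by adjusted p and past 2-fold alike (backgrounds 2.38% and 2.19% with RK-701, 1.93% and 1.89% with A366). Both calls were lost in a fit of the compared libraries alone (adjusted p = 0.161 and 0.236), that for *Dppa3* also without CC_cont library 1, or CC_T library 1, or CC_G (RK-701) library 1, or CC_TG (RK-701) library 2 (adjusted p 0.0614 to 0.183) and that for *Dnmt3l* without CC_cont library 1, or CC_T library 1, or CC_G (A366) library 1 or 2, or CC_TG (A366) library 1 or 2 (adjusted p 0.0639 to 0.226). The *Dppa3* value was 0.65 without CC_cont library 1.

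The G9a inhibitors were compared with each other at the same dose and time in 4 pairs. Without TSA, *Dnmt3l* was higher with RK-701 (78.4, 77.04 and 83.8 CPM) than with A366 (47.99 and 60.5), without overlap (log2 fold change 0.56, SE 0.18, adjusted p = 0.0342, 95% interval 0.20 to 0.92), and the call was lost without any 1 of the 5 libraries (adjusted p 0.0543 to 0.321) and without the filter on low counts (0.135). This was the 1 member that passed (background 13%), and none was past 2-fold (8.06%), also by DESeq2, with 3 members at an unadjusted p under 0.05. With TSA, 0 members passed by either rule in edgeR or DESeq2 between RK-701 and A366 (backgrounds 0% and 0%), RK-701 and UNC0638 (1.31% and 1%) or A366 and UNC0638 (1.04% and 0.872%), and 0, 1 and 0 members had an unadjusted p under 0.05. The log2 difference of *Dppa3* was 0.01 between RK-701 and A366 (95% interval -0.39 to 0.42), -0.09 between RK-701 and UNC0638 (-0.50 to 0.31) and -0.11 between A366 and UNC0638 (-0.52 to 0.30). For *Dnmt3b* these differences were -0.07 (-0.86 to 0.71), 0.46 (-0.34 to 1.25) and 0.53 (-0.26 to 1.32), and these intervals are wide.

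Because the TET enzymes share their substrate, their makeup was described as shares of the summed TPM of the family. In IVF embryos, *Tet3* made up 49.4% ± 4.18 (SD, n = 4), *Tet1* 44.6% ± 2.25 and *Tet2* 5.92% ± 2.23 of 57.05 ± 6.97 TPM. *Tet3* held the largest share in CC_G (A366) (59.3% ± 5.85, SD, n = 2) and CC_T (57.4% ± 1.93), and the smallest in SCNT-*Kdm3a* (36.2% ± 0.271). *Tet1* held its largest shares in CC_TG (UNC0638) (53.3% ± 3.67), CC_TG (RK-701) (51.5% ± 0.861) and SCNT-*Kdm3a* (51.1% ± 0.0301). The summed level was 32.8 ± 4.64 TPM in SCNT-*Kdm3a* and 35.9 ± 1.23 in SCNT-*Kdm4d*, with all 4 libraries below all 4 IVF libraries (51.9 to 67.3 TPM), as were the 6 CC_TG libraries (39.6 to 47.9 TPM), and 64.2 ± 10.2 in CC_G (A366), which overlapped with IVF. CC_cont had the widest spread, with *Tet3* at 43.5% ± 13.99 of the family. Of the summed TPM of *Dnmt1*, *Dnmt3a*, *Dnmt3b* and *Dnmt3l*, *Dnmt3l* held 38.2% in CC_T, its smallest share, and 57.1% in CC_TG (RK-701), its largest. That sum was 108 ± 6.57 TPM in IVF (SD, n = 4), 152 ± 11.7 in control SCNT, 175 ± 13 in CC_cont and 105 ± 14.5 in CC_TG (UNC0638). These shares and sums were not tested.

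**Figure D4:**
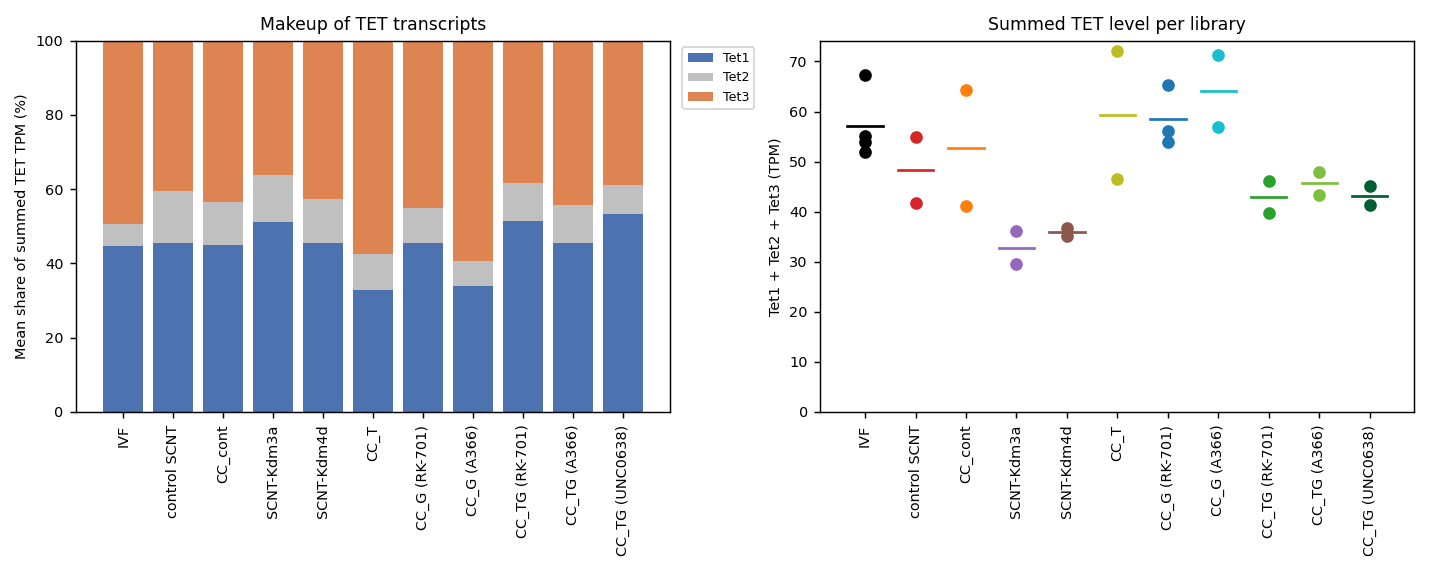
Left, mean share (%) of *Tet1*, *Tet2* and *Tet3* in their summed TPM by group; right, the summed TPM in each library (points) with the group mean (line). *Tet3* filled 59.3% in CC_G (A366) and 36.2% in SCNT-*Kdm3a*, whose summed level was the lowest.

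Genes that work with the members were taken in 12 lists by role, and a gene was counted when it passed by adjusted p and was past 2-fold. In untreated SCNT against IVF (log2 fold changes throughout), where 18.8% of all genes were past this rule with a median of 0, genes whose promoters are silenced by methylation outside the germline were lower, with 5 of 9 down, 0 up and a median log2 fold change of -2.31. They included *Rpl10l* (-4.38, adjusted p = 2.77e-12), *Ddx4* (-3.86, adjusted p = 1.07e-11), an RNA helicase of germ cells, and *Hormad1* (-3.00, adjusted p = 2.57e-09), which acts in meiosis. Of 18 genes of base excision repair and active demethylation, 3 rose and 3 fell with a median of -0.38. *Gadd45g* (3.79) and *Gadd45b* (1.14), stress-induced adaptors linked to demethylation, and the repair scaffold *Xrcc1* (1.71) rose, and the glycosylases *Nthl1* (-1.39) and *Neil3* (-1.25) and the ligase *Lig3* (-1.33) fell. Of 7 partners of maintenance, *Lig1*, the replicative ligase, rose (1.56) and 0 fell. Of 7 CXXC proteins, which bind unmethylated CG, *Kmt2a* (2.08) and *Cxxc5* (1.05) rose, 0 fell, and the median was 0.69.

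Enzymes that make the cosubstrate of TET proteins were split, with *Idh1* up (1.39) and *Idh3a* down (-1.56) of 6. Of 10 genes for the methyl donor, the serine hydroxymethyltransferase *Shmt1* fell (-1.75) and 0 rose. None of the 7 methyl-CpG readers tested (of 9), the 3 proteins that protect imprints or the 2 other homologues of methyltransferases passed. Of the 12 stored oocyte transcripts 7 fell and 0 rose (median -1.11), including *Nlrp14* (-1.83), *Zar1* (-1.58) and *Oosp1* (-1.51). Of the 9 2-cell transcripts 4 fell and 0 rose (median -0.87), including *Zscan4f* (-5.43), *Zscan4d* (-4.44) and *Zscan4c* (-3.26), near-identical copies whose reads can be split between them. Of the 8 cumulus genes tested (of 12), *Inhba* was called higher, with 0 reads in all IVF libraries and thus no fold, and *Cyp19a1* fell (-2.41).

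With TSA, where 5.87% of all genes were past this rule, 3 of the 9 germline genes rose and 0 fell, with *Rpl10l* at 1.83 and *Hormad1* at 1.49, although the median of the list was -0.15. Single genes of other lists fell, namely *Gadd45g* (-1.31), *Lig1* (-1.04), *Idh1* (-1.02) and the methyl-CpG reader *Zbtb38* (-1.18), and of the cumulus genes, all with few reads, *Ptgs2* (-1.73) and *Cyp11a1* fell. The remaining 6 lists held 0 such genes. With the G9a inhibitors, where 1.55% were past the rule, *Gadd45g* fell (-1.04), the germline gene *Slc25a31* (1.05) and *Zscan4d* (1.25) rose, and the other 9 lists held 0 such genes.

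Over the 25 libraries, which share the normalisation and cluster by group, *Dnmt3b* and *Dppa3* ran opposite to each other. Pearson's r of log2(CPM + 1) was -0.780 (n = 25), and -0.751 without the 2 libraries farthest from the median of *Dppa3*. It was -0.255 once the mean of each group was subtracted, so that most of it lay between groups. For *Dnmt1* and *Dppa3* r was -0.694, and -0.483 within groups. For *Tet3* and *Dppa3* it was -0.494, and -0.807 within groups, the strongest within groups of all pairs of members. Relative to their means, both genes spread most in CC_cont (SD 52.5% for *Tet3* and 38.3% for *Dppa3*) and CC_T (27.8% and 27.0%), with 2 libraries each. The value without these groups was not computed. *Tet3* and *Uhrf1* ran together (0.607, and 0.00425 within groups), as did *Dnmt1* and *Dnmt3b* (0.553 and -0.0729) and *Dnmt3a* and *Dnmt3l* (0.543 and 0.361). The plot of *Dnmt3b* and *Dnmt1* against *Dppa3* shows the groups behind these values.

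**Figure D5:**
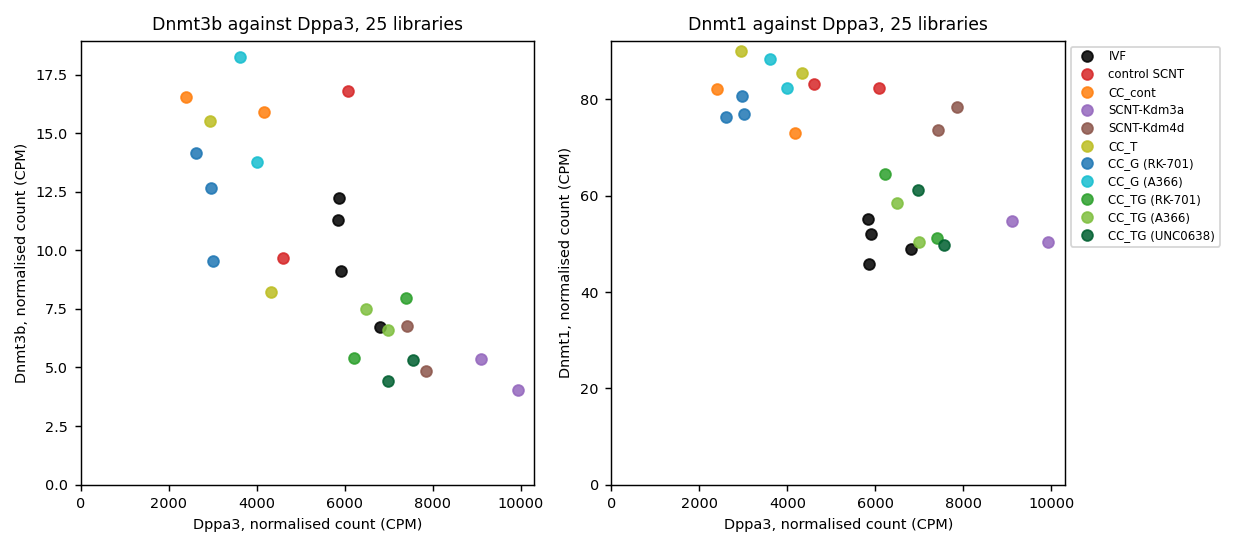
Normalised counts (CPM) of *Dnmt3b* (left) and *Dnmt1* (right) against *Dppa3* in each of the 25 libraries, coloured by group. Libraries of SCNT-*Kdm3a* (*Dppa3* 9106 and 9935, *Dnmt3b* 5.34 and 4.02 CPM) lie at the lower right and those of CC_cont (*Dppa3* 4170.4 and 2394, *Dnmt3b* 15.9 and 16.6) at the upper left.

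Among the 8171 autosomal genes whose mean reached 10 CPM, the patterns most like each member over the 25 libraries, by Pearson's r, were those of *Gm5612* (0.972) and *Gm15452* (0.965) for *Dppa3*, *Atp2a2* (0.925) and *Flcn* (0.914) for *Tet3*, *Fam57a* (0.890) and *Usp31* (0.83) for *Uhrf1* and *Esyt1* (0.878) and *CT010467.1* (0.872) for *Dnmt1*. For *Dnmt3b* they were *Plagl1* (0.823) and *Hbegf* (0.817), for *Dnmt3a* *Ntmt1* (0.806) and *Bzw2* (0.805), and for *Dnmt3l* *Cep57l1* (0.828) and *Ctsh* (0.777). *Tet1* was nearest to *Gtf2e1* (0.758) and *Zfp30* (0.701), *Tet2* to *Gm36989* (0.739) and *Esd* (0.690), and *Tdg*, at very few reads, to *Zfp942* (0.662) and *Slc4a7* (0.621).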

How the data were processed

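The deposited file held raw read counts per gene and per copy of a transposable element, which the authors made with Trimmomatic, STAR (unique alignments to mm10) and featureCounts (read pairs, no strand, pairs over more than 1 feature uncounted). Libraries were full-length, from poly(A) RNA. Its 55375 genes were used here, with symbols from GENCODE M21. Autosomal genes that averaged 1 read or more (25794) were fitted in edgeR 4.0.16 (R 4.3.3, limma 3.58.1; TMM factors 0.883 to 1.16) with 1 mean per group over all 25 libraries, a robust quasi-likelihood test and Benjamini-Hochberg adjustment. CPM and TPM were computed from the counts, TPM over autosomal genes. Alternatives were DESeq2 1.42.0, other scalings, filters and references, a replicate block and each library left out. Figures were drawn with matplotlib 3.10.9 in Python 3.11.15. The 10 members and the 12 lists (104 genes) were chosen with earlier results of these data known. Named were all members, up to 3 list genes per direction for controls against IVF and up to 2 for TSA and for the G9a inhibitors, and 2 genes of like pattern per member.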

Additional observations from a re-analysis of the deposited data

Results flagged for a closer look

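Among the 10 members in the 4 IVF libraries, *Dppa3* had a library apart from the others. IVF library 3, at 6806 CPM, stood above the other 3 (5842 to 5909 CPM) by a gap of 0.931 of the whole range (above Dixon's 95% critical value for 4 samples), and chance alone flags about 1 in 20 such groups. Of 20 interactions tested, the effect of TSA on *Dppa3* differed with RK-701 by 1.106 on the log2 scale and its effect on *Dnmt3l* differed with A366 by 1.148.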

How the results depend on the processing

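Of the 46 member results with an adjusted p under 0.05, 24 kept it under all other settings of the fit and 13 also without every single library. The settings were DESeq2, RLE factors, other filters on low counts, sex chromosomes, other reference groups, only the compared libraries and a replicate block. Members past 2-fold numbered 0 of 10 in untreated SCNT against IVF, and 5 with no fold threshold, 1 with no filter on low counts and 1 with only the compared libraries. They numbered 6 of 80 in the 8 treated groups against IVF (24 with no fold threshold), and 1 of 20 after *Kdm3a* or *Kdm4d* mRNA (4 with no fold threshold, 2 by DESeq2, 4 with CC_cont and 3 with the mean of both controls as reference). In the 6 inhibitor groups they numbered 6 of 60 (2 with only the compared libraries, 1 with control SCNT and 3 with the mean of both controls as reference). With no fold threshold the count went from 0 to 3 for TSA, from 0 to 1 for the G9a inhibitors and from 0 to 1 for the 4 inhibitor pairs. The 2 interactions were lost, to 0, with only the compared libraries. The cause of these shifts was not tested.

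Leaving out single libraries gave counts of 0 to 1 for untreated SCNT against IVF, 3 to 7 for the treated groups, 0 to 1 for the mRNAs, 3 to 6 for the inhibitor groups, 0 to 1 for TSA and 0 to 5 for the interactions. The lowest count of the treated groups (3) came without IVF library 2. In a group left with 1 library, that library was assumed to vary like the others. Replicate numbers did not pair the samples, since over 111 same-number pairs the correlation of deviations ran from -0.322 to 0.165 and only 4 passed 0.1. With the replicate block the counts were 5 of 80 for the treated groups, 4 of 60 for the inhibitor groups and 0 of 20 for the interactions, and the others did not change. Calls by adjusted p were also lost with it (adjusted p 0.0510 to 0.125). Against IVF these were *Tet1* in untreated SCNT, *Tet3* in SCNT-*Kdm4d*, *Tet3* and *Uhrf1* in CC_TG (RK-701), *Uhrf1* in CC_G (A366) and *Dnmt3b* in CC_TG (UNC0638). Against controls they were *Dnmt1* in SCNT-*Kdm3a* and *Dnmt3b* in CC_TG (RK-701) and CC_TG (A366). *Dnmt1* with TSA, *Dppa3* with the G9a inhibitors, both interactions and *Dnmt3l* between RK-701 and A366 were lost too. The ratio of mean TPM was added after seeing the data. It turned 1 of 89 values, *Tet1* in CC_TG (UNC0638) against CC_cont, from 0.44 to -0.019 (adjusted p = 0.208 in the fit), and 0 of the 46 that passed. With TPM over all genes the median of the 110 group levels went from 23.4 to 20.2, with changes of -23.3% to -11.4%, and 49 stayed within 1 SD. For *Tdg* and *Dnmt3b*, few reads limit what can be told apart.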
